A study of Mus musculus with 12 samples.

Results

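The levels of 33 genes that mark radial glia, astrocytes and the oligodendrocyte lineage were followed in the striatum of wild-type mouse embryos and of embryos labelled as lacking Foxp1. The genes were chosen by name as markers of these cells, and all 33 had a probe set among the 25428 on the array. They comprise 11 radial glia, 12 astrocyte and 10 oligodendrocyte lineage genes. RNA came from the striata of both hemispheres of 12 embryos at embryonic day 18.5, with 1 array per embryo and 6 biological replicates per group. The strain was C57BL/6J throughout. The control group was wild type (WT). The second group, labelled Nestin-Cre (Foxp1-/-) and called cKO here, combined Cre recombinase driven by Nestin, which is active in neural progenitors, with a genotype given as Foxp1-/-; Foxp1 is a forkhead protein that regulates transcription in striatal projection neurons. Because those progenitors give rise to neurons, astrocytes and oligodendrocytes, the labels do not tie the loss to 1 of these lineages. The labels do not say whether WT embryos carried Cre or a floxed allele.

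Radial glia are the neural stem cells of the embryonic brain. Their bodies line the ventricle, and they first produce neurons and then, around birth, turn to making astrocytes and oligodendrocyte progenitors. Many of their genes stay on in astrocytes, which clear glutamate, supply metabolites and contact vessels. Oligodendrocyte progenitors are specified by Olig genes, spread through the tissue, pass through a premyelinating state and later make myelin, which in the mouse forebrain is mostly a postnatal event. In bulk tissue, fewer cells of a type and less RNA per cell cannot be told apart.

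Foxp1 was lower in the cKO striatum on every array. WT arrays spanned 10.89 to 11.39 on the log2 scale and cKO arrays 10.14 to 10.36, a change of -0.91 ± 0.07 (SE; limma adjusted p = 0.000170), or 1.88-fold lower. The cKO arrays thus kept a Foxp1 signal well above the array median of 5.71. The labels do not say which exons were deleted or where the probes lie, so the signal does not measure the functional transcript that was left. Against that change, 0 of the 33 glial genes passed an adjusted p of 0.05 in limma, where 185 probe sets, or 0.728% of all tested, passed. Before adjustment, 3 members had a p under 0.05, with Nes and Pax6 higher and Cspg4 lower, beside a background of 10.7% of all probe sets. At or above the array median, where 27 of the members lay, 940 of 12713 probe sets were higher and 1058 lower at that p. The WT and cKO arrays overlapped for all 33 genes, while they did not overlap for 1.38% of all probe sets. In all 33 the difference between the group means was smaller than the range over the WT embryos, as it was for 98.6% of all probe sets.

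The intervals bound how large a difference the arrays could have missed. The 95% interval of every member lay inside a 1.5-fold change either way, as for 99.5% of all probe sets and 98.9% of those at or above the median array value of 5.71. For 29 of the 33 (87.9%) it lay inside a 1.25-fold change, a smaller share than the 96.2% of all probe sets and the 92.4% of those at or above the median. The widest bound was that of Nes, whose interval ended at 0.38 log2 units, or 1.30-fold. These intervals are for each gene alone and apply to the deposited values, which compress differences near the lower end of the scale. The compression bears on 6 members whose mean lay below the array median: Hopx, S100b, Nkx2-2, Mag, Bcas1 and Enpp6. It bears likewise on Gfap, Id3 and Mbp, which lay just above that median, at percentiles 51.5, 51.6 and 55.2 of all probe sets.

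**Figure D1:**
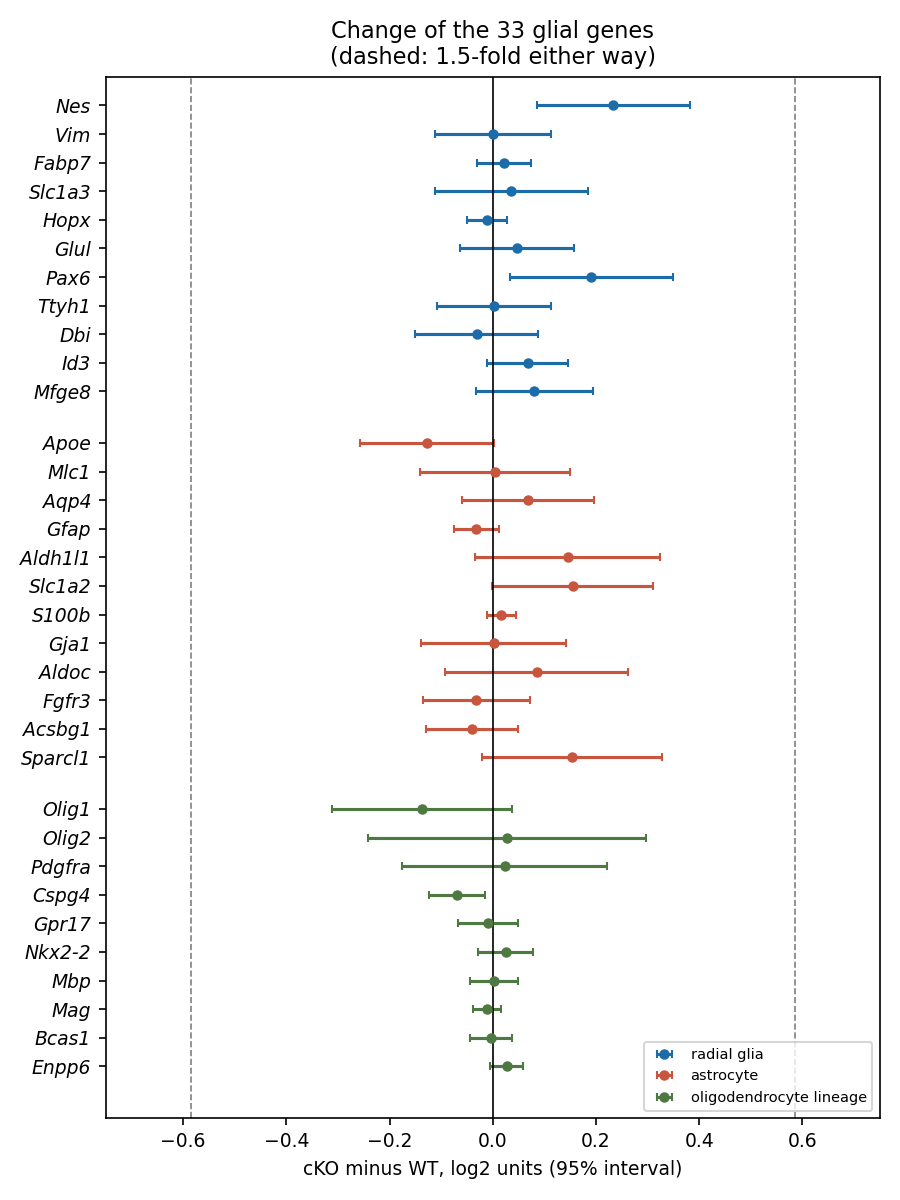
Change of each of the 33 genes, cKO minus WT in log2 units on the horizontal axis, with its 95% interval from limma (6 arrays per group) and colours for the 3 classes. Every interval lies inside the dashed lines at 1.5-fold, and those of Nes and Pax6 (higher) and Cspg4 (lower) do not cross 0, although no gene passed after adjustment.

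The radial glia genes had a median change of 0.036 log2 units, against -0.00077 for all probe sets, and 9 of the 11 changes were above 0, as were 48.8% of all changes. Nes encodes nestin, the intermediate filament protein of neural progenitors. Its log2 level had a lowest, median and highest value of 6.64, 6.83 and 7.09 in WT and of 6.91, 7.09 and 7.19 in cKO. WT replicate 2 alone reached into the cKO range, and the other 5 WT arrays lay below all 6 cKO arrays. The change was 0.23 ± 0.07 (SE), with a limma adjusted p of 0.189, and over the alternatives it ran from 0.18, without WT replicates 3 and 6 (adjusted p = 0.434), to 0.28, without WT replicate 2 (adjusted p = 0.0527). Among the cKO arrays replicate 6 was the lowest and replicate 5 the highest.

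Because Nes had the largest difference of the set, the 250 bases before its start in RefSeq (GRCm38.p6, chr3:87970843-87971092, plus strand) are given here 5′ to 3′, with 2 GC boxes (GGGCGG read on the opposite strand) in capitals:
Nes: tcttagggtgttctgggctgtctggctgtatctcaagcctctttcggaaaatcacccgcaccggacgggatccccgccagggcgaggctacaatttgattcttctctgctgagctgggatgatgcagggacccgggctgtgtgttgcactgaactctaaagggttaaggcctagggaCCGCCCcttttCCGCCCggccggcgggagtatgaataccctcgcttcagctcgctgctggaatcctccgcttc
A GC box, GGGCGG or CCGCCC, was found in this window in 35.4% of the 27025 genes of the promoter table. The share was 45.3% of the genes measured here, 44.4% of the 27 members with an entry and 69% of the 129 called genes with one. The forkhead sequence GTAAACA, or its reverse complement TGTTTAC, was not among these 250 bases.

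Pax6, a paired-box transcription factor of radial glia that is most abundant in the cortex, read 6.98, 7.22 and 7.38 (lowest, median and highest) in WT and 7.27, 7.36 and 7.59 in cKO. The groups overlapped through WT replicates 2, 5 and 6, and the change was 0.19 ± 0.07 (limma adjusted p = 0.350). WT replicate 3 had the lowest level of both Nes and Pax6, and cKO replicate 5 the highest of both. Vim, a second filament gene of these cells, read 11.24, 11.41 and 11.50 in WT and 11.27, 11.41 and 11.46 in cKO. Its change was 0.00087 ± 0.05, with an interval from -0.11 to 0.11.

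Fabp7, the brain lipid-binding protein used to mark radial glia, sat near the top of every array. It ranked between 4 and 6 from the top of the 25428 probe sets. Its values were 13.45 on all 6 cKO arrays and from 13.36 to 13.51 in WT. Since all arrays share 1 distribution of values, a probe set that keeps its rank keeps its value, and Fabp7 had little room to differ (change 0.022 ± 0.024, adjusted p = 0.802). Hopx, a homeodomain-only protein, lay at the other end, between 5.38 and 5.47 on all 12 arrays, where a change could hardly be seen.

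The remaining 6 radial glia genes, most of them shared with astrocytes, showed no call. Slc1a3, the glutamate transporter GLAST, spanned 10.13 to 10.56 on WT arrays and 10.32 to 10.52 on cKO arrays (change 0.04 ± 0.07). Glul, glutamine synthetase, spanned 10.32 to 10.44 on WT arrays and more, 10.24 to 10.60, on cKO arrays (change 0.05 ± 0.05). Dbi, an acyl-CoA-binding protein, had a change of -0.03 ± 0.05 and Ttyh1, a chloride channel protein, one of 0.0028 ± 0.0503. Mfge8, a secreted glycoprotein, had a change of 0.08 ± 0.05, and Id3, an inhibitor of basic helix-loop-helix factors, one of 0.07 ± 0.04 with levels of 5.64 to 5.85 over the 12 arrays. The limma adjusted p of these 6 genes ran from 0.542 for Id3 to 0.992 for Ttyh1.

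The astrocyte genes had a median change of 0.010, with 8 of 12 above 0 and 4 below. Slc1a2, the glutamate transporter GLT-1 that rises as astrocytes mature, read 6.54, 6.83 and 6.94 (lowest, median and highest) in WT and 6.81, 6.95 and 7.08 in cKO. Only WT replicates 2 and 6 lay below all cKO arrays, and the change was 0.15 ± 0.07 (adjusted p = 0.469). Aldh1l1, a folate enzyme used as a general astrocyte marker, read 6.87, 7.19 and 7.37 in WT and 7.12, 7.34 and 7.44 in cKO (change 0.15 ± 0.08, adjusted p = 0.572). Sparcl1, the secreted synapse-promoting protein hevin, read 10.16, 10.42 and 10.52 in WT and 10.29, 10.52 and 10.73 in cKO (change 0.15 ± 0.08, adjusted p = 0.532). These were the 3 largest positive values of the class, and WT replicate 6 was the lowest of all 12 arrays in each of them.

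Apoe, a lipid carrier made by astrocytes and microglia, had the most negative value of the class. Its lowest, median and highest levels were 7.77, 7.88 and 8.01 in WT and 7.60, 7.75 and 7.95 in cKO, with 3 cKO arrays below every WT array, the other 3 inside the WT range and a change of -0.13 ± 0.06 (limma adjusted p = 0.476). The connexin gene Gja1 and Mlc1, a membrane protein of astrocyte endfeet, had changes of 0.0015 ± 0.0638 and 0.0043 ± 0.0661. Both were highest in WT replicate 3, at 6.49 for Gja1 and 9.29 for Mlc1. Aqp4, the endfoot water channel, had a change of 0.07 ± 0.06, and Aldoc, the aldolase of astrocytes, one of 0.09 ± 0.08, with WT replicate 1 the lowest Aldoc array at 9.98. Fgfr3, a growth factor receptor of the astrocyte lineage, had a change of -0.03 ± 0.05 and Acsbg1, an acyl-CoA synthetase, one of -0.04 ± 0.04.

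Genes of mature or reactive astrocytes were close to the lower end of the scale. Gfap, the astrocyte filament gene, lay between 5.69 and 5.80 on all 12 arrays (change -0.03 ± 0.02). S100b, a calcium-binding protein, lay between 5.45 and 5.52 (change 0.016 ± 0.013). A difference in these genes would have had to be large to be seen.

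**Figure D2:**
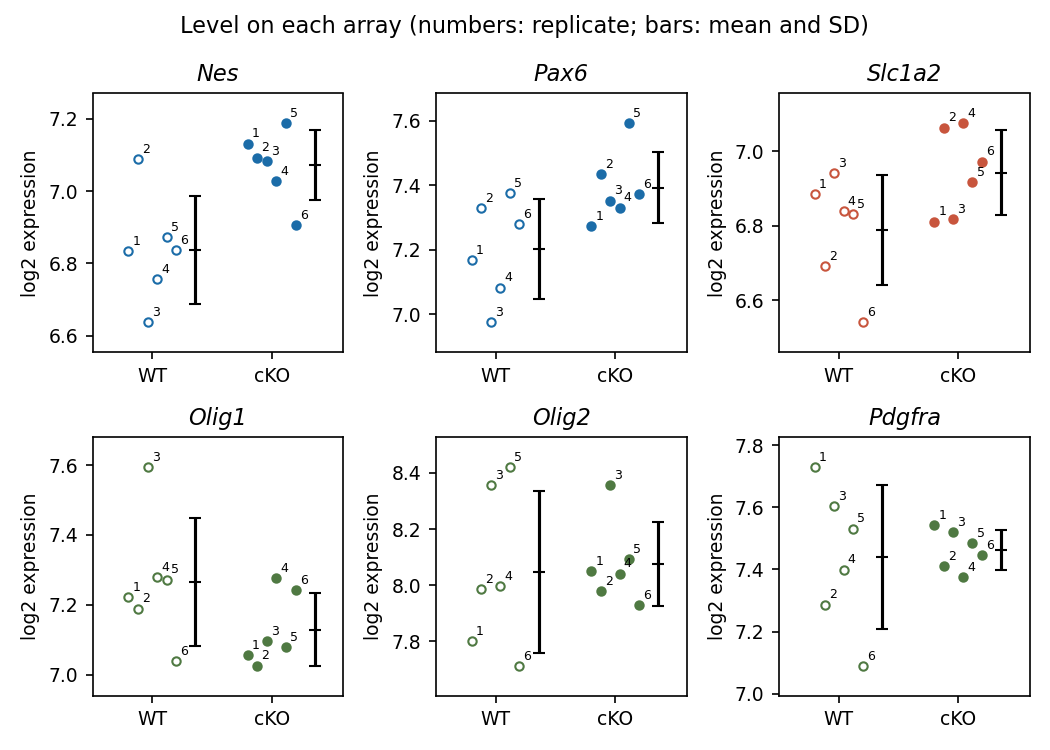
Log2 expression on each array (vertical axis) for 6 of the genes, WT open and cKO filled, with replicate numbers beside the points and the mean and SD of 6 arrays as bars. Nes and Pax6 sit higher in most cKO arrays with overlap. Olig2 and Pdgfra spread over the WT embryos by more than the group means differ, as all 33 genes do.

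The oligodendrocyte lineage genes had a median change of -0.00052, with 5 of the 10 values above 0 and 5 below. Olig2 and Pdgfra, like all 33 members, had a range over the WT embryos larger than the difference between the group means. Olig2, the transcription factor that specifies the lineage, read 7.71, 7.99 and 8.42 (lowest, median and highest) in WT and 7.93, 8.05 and 8.36 in cKO. WT replicates 3 and 5 and cKO replicate 3 stood high, at 8.36, 8.42 and 8.36, and WT replicates 6 and 1 low, at 7.71 and 7.80. Its change was 0.03 ± 0.12 (adjusted p = 0.963), with an interval from -0.24 to 0.30, and its residual SD of 0.23 stood at percentile 99.0 of all probe sets.

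Pdgfra, the receptor through which PDGF drives progenitor division, read 7.09, 7.47 and 7.73 in WT and 7.38, 7.46 and 7.54 in cKO, so the WT arrays enclosed the cKO arrays on both sides. Its SD was 0.23 (n = 6) in WT and 0.06 (n = 6) in cKO, and its change 0.02 ± 0.09 (limma adjusted p = 0.958). Olig1, the partner gene of Olig2, read 7.04, 7.25 and 7.59 in WT and 7.03, 7.09 and 7.28 in cKO. WT replicate 3 stood above the others, 4 cKO arrays lay below every WT array except replicate 6, and the change was -0.14 ± 0.08 (adjusted p = 0.589). Olig1 and Olig2 thus had values of opposite sign, neither of which passed.

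Cspg4, the NG2 proteoglycan of progenitors and pericytes, was the member with the smallest unadjusted p of the lineage. Its levels were 5.93, 5.97 and 6.06 (lowest, median and highest) in WT and 5.87, 5.92 and 5.95 in cKO, a narrow band with overlap and a change of -0.07 ± 0.02 (limma adjusted p = 0.307). Nkx2-2, a homeodomain factor of maturing progenitors, had a change of 0.026 ± 0.024. The genes of committed and premyelinating cells also differed little: Gpr17, an orphan receptor of committed precursors, by -0.0090 ± 0.0268, Bcas1 by -0.0032 ± 0.0185 and the choline phosphodiesterase gene Enpp6 by 0.027 ± 0.015. The means of Nkx2-2, Bcas1 and Enpp6 lay below the array median, where differences are compressed. The myelin genes Mbp and Mag lay between 5.78 and 5.88 and between 5.38 and 5.44 on all 12 arrays, with changes of 0.0022 ± 0.0210 and -0.011 ± 0.012. At these levels a difference in myelin genes could hardly have been measured.

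In WT, many members of a class lay on the same side of the group mean on some arrays. WT replicate 3 lay above the WT mean in 12 of 12 astrocyte genes and in 8 of 10 oligodendrocyte lineage genes, but in 6 of 11 radial glia genes. WT replicate 5 lay above it in 10 of 11, 9 of 12 and 8 of 10. WT replicate 6 lay above it in 9 of the 33 genes and was the lowest WT array in 10. Over the 12713 probe sets at or above the array median, the shares above the WT mean were 48.3% for replicate 3, 47.8% for replicate 5 and 51.2% for replicate 6. Replicate 6 was the lowest WT array in 23% of these probe sets and in 30.3% of the members. Replicates 3 and 6 were also the arrays least correlated with their own group, with means of 0.9945 and 0.9953 against 0.9962 to 0.9976 for the other 10. Leaving out both, which was decided after the data were seen, left 0 members past the threshold, with median changes of 0.016 for radial glia, 0.030 for astrocyte and -0.0076 for oligodendrocyte lineage genes.

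The mean over the 12 astrocyte genes ran from 7.23 in WT replicate 6 to 7.46 in WT replicate 3, and the cKO arrays, at 7.29 to 7.41, lay between them. The mean over the 10 oligodendrocyte lineage genes likewise went from 6.17 to 6.35 in the same WT arrays, with cKO arrays at 6.22 to 6.29. For radial glia genes the means spanned 9.14 to 9.28 on WT and 9.22 to 9.32 on cKO arrays, with overlap. The WT SD exceeded the cKO SD in 24 of 33 members (72.7%), near the 67.6% of probe sets at or above the array median. With WT replicates 3 and 6 left out, the WT SD was larger in 21 of 33 (63.6%, against 50.5%). That WT SD rests on fewer arrays than the cKO SD, and 6 of the members lay below the array median.

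**Figure D3:**
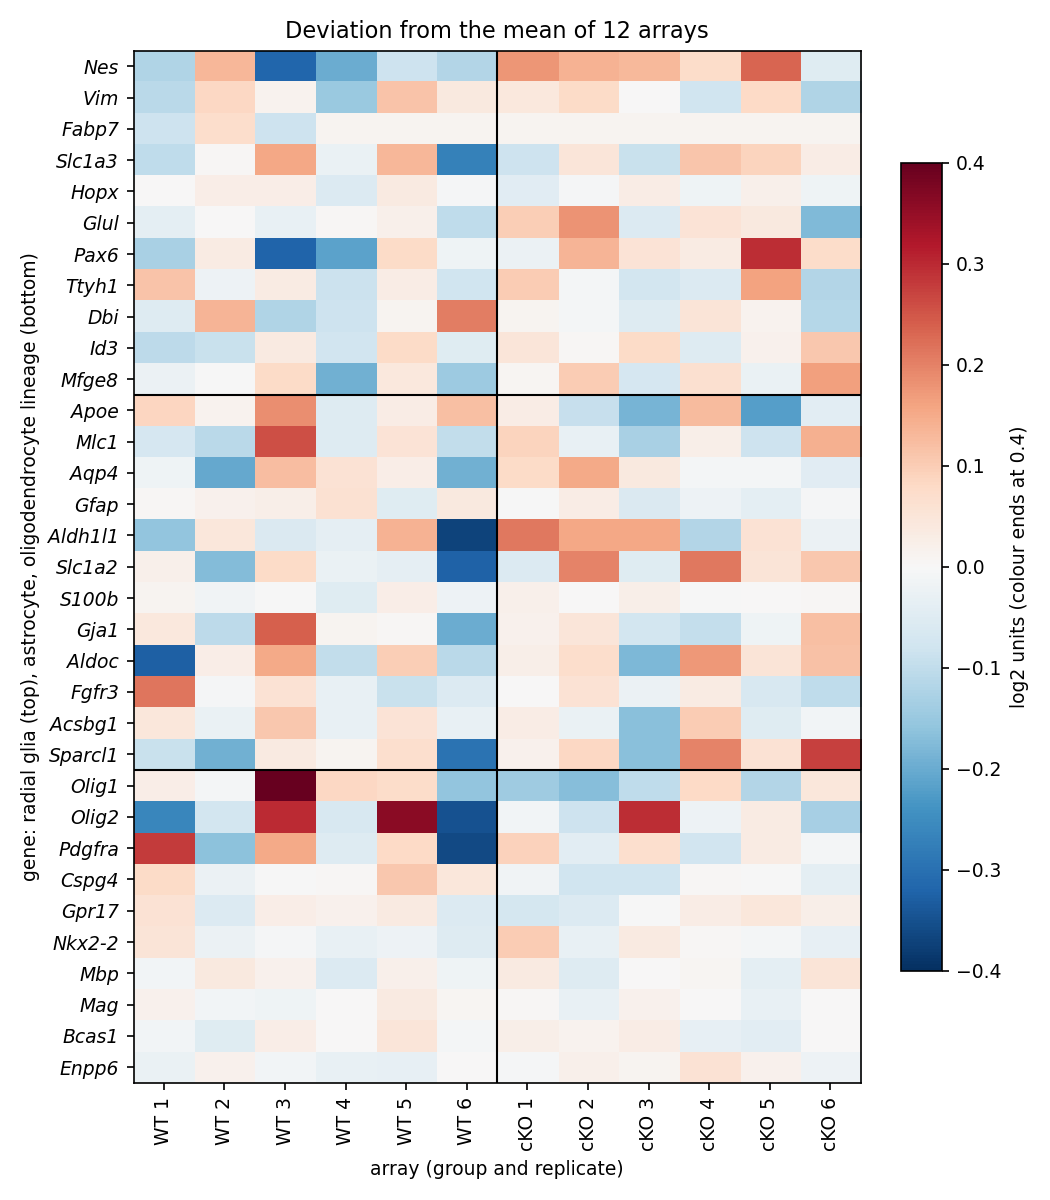
Deviation of each array (columns, WT left and cKO right) from the mean of all 12 arrays for each gene (rows, in 3 classes), in log2 units by colour. Olig1, Olig2, Pdgfra and most astrocyte genes are high in WT replicate 3 and low in WT replicate 6, except Aldh1l1 and S100b in the former and Apoe and Gfap in the latter, and the near-floor genes at the bottom hardly vary.

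Further genes of the same lineages, listed by name with earlier results of these data known, were set beside the members. Of 19 further radial glia genes 0 passed in limma. Before adjustment, 4 with a p under 0.05 were higher and 1 was lower, beside 5.06% and 5.67% of all probe sets, and the median change was 0.037. At or above the array median the counts were 940 and 1058 of 12713 probe sets. The stem cell factor gene Sox2 spanned 9.93 to 10.44 on WT and 10.37 to 10.73 on cKO arrays (change 0.37 ± 0.09, adjusted p = 0.111). Its adjusted p fell below the threshold, to 0.0393, when only the brighter probe sets were fitted and, to 0.0454, under a trended and robust prior, but not in the other 17 alternatives (changes of 0.27 to 0.41, adjusted p up to 0.301). Sox9, which promotes the glial fate, went the other way, at 9.53 to 10.18 on WT and 9.35 to 9.65 on cKO arrays (change -0.36 ± 0.10, adjusted p = 0.141). Sox9 passed in 1 of 19 alternatives, without WT replicate 1 (adjusted p = 0.0324), and its adjusted p was up to 0.350 in the others; its change ran from -0.43 to -0.28. Of 24 further astrocyte genes 0 passed, with 2 higher and 2 lower among those of p under 0.05 before adjustment, beside the same shares, and a median of 0.042; the smallest p belonged to Slc7a11, a cystine transporter (0.062 ± 0.020, adjusted p = 0.262), and Id4 (0.11 ± 0.04, adjusted p = 0.271).

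Of 23 further oligodendrocyte lineage genes 2 fell and 0 rose, against backgrounds of 0.429% and 0.299% of all probe sets. Sox8, a SoxE transcription factor used in this lineage, spanned 8.82 to 9.49 on WT and 8.04 to 8.37 on cKO arrays, without overlap, a fall of 0.89 ± 0.10 (limma adjusted p = 0.00180). Vcan, the matrix proteoglycan versican, spanned 10.10 to 10.29 on WT and 9.87 to 10.00 on cKO arrays, also without overlap. Its fall was 0.24 ± 0.03 (limma adjusted p = 0.00828), and under the replicate block its adjusted p was 0.0887. WT replicate 6 was the highest WT array for both genes and the lowest for Olig1, Olig2 and Pdgfra. This contrast was picked out after the values were seen. Which cells the Sox8 and Vcan signals came from was not tested. Before adjustment, 7 of the 23 with a p under 0.05 were lower and 0 were higher, beside backgrounds of 5.67% and 5.06%. Among these 7, picked out after their values were seen, the tight junction gene Cldn11 had a change of -0.09 ± 0.02 (adjusted p = 0.134). The myelin gene Mog had one of -0.053 ± 0.015 (adjusted p = 0.167). Both were without overlap of the groups, as were 4 of the 23 with Sox8 and Vcan included, beside 1.38% of all probe sets. Mog lay near the lower end of the scale, at 5.618 to 5.705 on WT and 5.595 to 5.615 on cKO arrays, where differences are compressed. Sox10, a SoxE factor that defines the lineage and was also chosen after its value was seen, had a change of 0.017 ± 0.031 (adjusted p = 0.901). Its levels, 5.55 to 5.70 on WT and 5.58 to 5.75 on cKO arrays, were near the lower end, where a change could hardly be seen. The means of 9 of the 23 genes lay below the array median. The list means without Sox8 and Vcan overlapped, at 6.02 to 6.11 in WT and 6.03 to 6.06 in cKO.

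**Figure D4:**
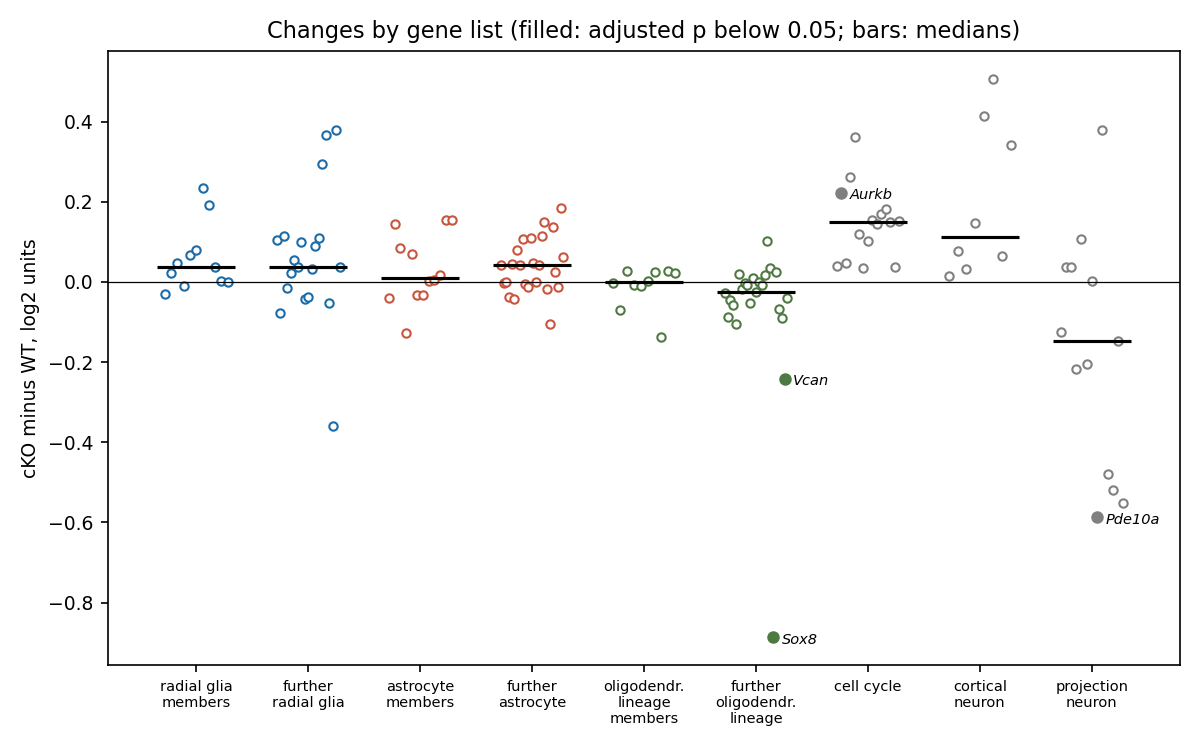
Change of each gene, cKO minus WT in log2 units (vertical axis), for the member classes, the further genes of each lineage and 3 lists of other cells, with bars at the medians and filled points for an adjusted p below 0.05. No member is filled, whereas Sox8 and Vcan are filled below 0 among the further oligodendrocyte lineage genes, Aurkb above 0 among cell cycle genes and Pde10a below 0 among projection neuron genes.

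Markers of other cells give the setting of these values. All 13 measured projection neuron markers lay above the array median. Of them 1 fell, beside 0.429% of all probe sets, the phosphodiesterase gene Pde10a (-0.59 ± 0.09, limma adjusted p = 0.00869, and 0.0718 with the replicate block). Before adjustment, 6 of the 13 were lower and 2 higher at p under 0.05, beside 5.67% and 5.06% of all probe sets. Of the 12713 probe sets at or above the array median, 1058 were lower and 940 higher at that p. The list's median change was -0.15, and its mean level spanned 9.22 to 9.52 on WT and 9.10 to 9.29 on cKO arrays. All 15 cell cycle genes had a positive value, beside 48.8% of all probe sets. Of them 1 rose, beside 0.299% of all probe sets, the mitotic kinase gene Aurkb (0.22 ± 0.04, adjusted p = 0.0303). Before adjustment, 5 of the 15 were higher and 0 lower at p under 0.05, beside the same 5.06% and 5.67% and the same counts of brighter probe sets. The Aurkb call was lost without any of WT replicates 4 and 5 and cKO replicates 2, 3 and 5 in turn (adjusted p from 0.0574 to 0.0841), with the replicate block (0.146) and without WT replicates 3 and 6 together (0.0504). The cell cycle means spanned 7.23 to 7.47 on WT and 7.31 to 7.55 on cKO arrays. Of 9 intermediate progenitor genes 1 rose, beside 0.299% of all probe sets, the antiproliferative gene Btg2 (0.15 ± 0.02, adjusted p = 0.0120). This call was lost when WT replicates 3 and 6 were dropped (adjusted p = 0.0637).

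Cortical neuron markers, relevant to Pax6 and Nes because cortex lies beside the striatum, were above 0 in 8 of 8, with 0 calls. Of all probe sets 48.8% were above 0. The mean of the cortical markers spanned 5.97 to 6.35 on WT and 5.97 to 6.60 on cKO arrays. Neurod6, a cortical neuron factor, spanned 5.97 to 6.95 and 6.25 to 7.41 (change 0.51 ± 0.21, limma adjusted p = 0.408). Neurod2, a related factor, had a change of 0.41 ± 0.18 (adjusted p = 0.410, and 0.0198 with the replicate block). The part of these cells in the Pax6 and Nes values was not tested. Vascular markers, relevant to Vim, Id3 and Cspg4, had 0 calls among 12 and means of 6.61 to 6.69 in WT and 6.64 to 6.70 in cKO. The 12 include Cspg4 itself. Before adjustment, 2 of them were higher and 2 lower at p under 0.05, beside 5.06% and 5.67% of all probe sets. Microglial markers, relevant to Apoe, had 0 calls among 9 and means of 5.85 to 5.91 and 5.87 to 5.92. Meningeal markers had 0 calls among 9. The smallest p of these lists belonged to Cspg4 and the angiopoietin receptor gene Tek (change 0.10 ± 0.04) among vascular genes and to Tmem119 (-0.04 ± 0.02) and the complement gene C1qb (0.11 ± 0.06) among microglial genes. Among meningeal genes it belonged to the matrix genes Ogn (0.06 ± 0.03) and Dcn (0.03 ± 0.02). Ependymal and choroid plexus markers had 0 among 10, but Ttr, the transthyretin gene of choroid plexus, picked out after its values were seen, read 9.96 in cKO replicate 1 and 5.39 to 5.57 on the other 11 arrays. In that list the smallest p belonged to Folr1 (-0.04 ± 0.02), a folate receptor gene, and Ccdc153 (-0.09 ± 0.06). Without cKO replicate 1 there were likewise 0 members past the threshold, and the median changes were 0.033 for radial glia, 0.0061 for astrocyte and -0.00033 for oligodendrocyte lineage genes.

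As Foxp1 binds DNA through a forkhead domain, the promoters were searched for GTAAACA or TGTTTAC in the 250 bases before each RefSeq start. Of the 33 genes 27 had an entry in the promoter table. The sequence was found in 1 of these 27 (3.70%), against 3.54% of all 27025 genes and 3.10% of the 129 genes with an entry that passed an adjusted p of 0.05. The match lay 148 bases before the second of the starts listed for Aldoc, inside the span of the gene (chr11:78324040-78324066, plus strand, GRCm38.p6), and is shown with the match in capitals:
Aldoc: acaggttttcTGTTTACctcaggaagg
Aldoc levels spanned 9.98 to 10.46 on WT and 10.13 to 10.48 on cKO arrays, with no call (limma adjusted p = 0.765). The shorter sequence TAAACA or TGTTTA, part of the longer one, was likewise found in 1 of 27 members and in 13.5% of all genes. A match is a description of letters in a window and not a measured binding site.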

How the data were processed

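The authors deposited log2 values made with RMA, as the submitters' processing notes state without a version. RMA corrects background, equalises the distributions of the arrays and summarises each probe set. The sorted values of the 12 arrays agreed to within 0.00187 log2 units and all medians were 5.71, so a change shared by all genes would not be seen. The scanner, the array design and its genome build are not given in the sources used here. Precision is limited by the number of arrays. Correlations between arrays ran from 0.992 to 0.998, and 0 pairs of columns were identical.

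Symbols came from the platform annotation through gene identifiers (24674 probe sets with 1 symbol, 754 with none, none with several). The fit of cKO against WT used limma 3.58.1 (lmFit, eBayes, R 4.3.3), two-sided and with no covariates, over all 25428 probe sets and 12 arrays, with Benjamini-Hochberg adjustment over all of them and a threshold of 0.05. Changes are cKO minus WT with limma's SE. The fit was tested on simulated arrays with known changes. The members and lists were chosen with earlier results of these data known, so no test was made over a list. All members are named, and from each further list those past the threshold or the 2 with the smallest p; other genes are identified as chosen after their values were seen. Alternatives were renewed quantile normalization, centring on the median, fitting the brighter probe sets only, a trended and robust prior, array weights, a replicate block and leaving out each array, and, added later, leaving out WT replicates 3 and 6. Promoter sequences are from RefSeq (GRCm38.p6).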

Additional observations from a re-analysis of the deposited data

Results flagged for a closer look

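Of 66 groups of 6 arrays, 1 for each member and genotype, 1 held an array far from the others by Dixon's criterion, which marks about 1 group in 20 by chance. It was Fabp7 in cKO replicate 1, at 13.4541 against 13.4531 on the other 5 cKO arrays. The sorted values of the 12 arrays differ by up to 0.00187 elsewhere, and Fabp7 ranked 5 from the top on all 6 cKO arrays.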

How the results depend on the processing

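The number of members past the threshold was 0 in all 19 alternatives in limma, and the lowest adjusted p of any member was 0.0527 (Nes, without WT replicate 2). Of the 33 changes 21 kept their sign in every alternative run on them, and 12 changed it in at least 1. In the main fit these 12 were at most 0.036 log2 units in size, but in an alternative Olig2 reached 0.10. The 6 dim members were not fitted when dim probe sets were left out. Leaving out each array gave median changes of 0.022 to 0.057 for radial glia, -0.0011 to 0.053 for astrocyte and -0.016 to 0.0077 for oligodendrocyte lineage genes. Foxp1 passed in all 19.

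The count over all probe sets was less stable than these. It was 278, with 118 higher, among brighter probe sets fitted alone, and 106 to 227, with 39 to 93 higher and 66 to 134 lower, when each array was left out. Without cKO replicates 2, 3 or 5 in turn it was 106, 117 and 109. Without WT replicates 3 and 6 there were 45 higher probe sets. With the replicate number as a block it was 64, with 24 higher and 40 lower. Over all probe sets, arrays of the same number had correlations of their deviations from the group means between -0.22 and 0.15. Each WT array had a higher correlation with the best of the 5 other cKO arrays, but a best of 5 is favoured over a single value. These correlations do not speak for single genes. The block lowered the SE of Neurod2 from 0.175 to 0.037 and raised that of Vcan from 0.035 to 0.038. Whether arrays of the same number form pairs was not tested. Array number, the spread between embryos and the compression near the lower end limit what can be seen; the cause of the shifts was not tested.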

Other observations

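WT replicate 6, which had the lowest WT values of Olig1 (7.04), Olig2 (7.71), Pdgfra (7.09), Slc1a2 (6.54), Aldh1l1 (6.87) and Sparcl1 (10.16), had the highest WT values of Foxp1 (11.39), Sox8 (9.49), Sox9 (10.18) and Pde10a (9.91). These genes were picked out after their values were seen, and the relation was not tested. Of the 12713 probe sets at or above the array median, WT replicate 6 was the lowest WT array in 23% and the highest in 24.2%.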
